A study of Mus musculus with 6 samples.

Results

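Smooth muscle cells shorten by sliding myosin along thin filaments of actin. The 34 genes described here encode the parts of that machine: muscle actins, myosin chains with their kinase and phosphatase, the proteins that coat the thin filament, desmin-type intermediate filaments, the plaques that fix filaments to the membrane, calcium store proteins and the transcription factors that turn the set on. They were listed by name from their roles, with earlier results of these data known. Every gene of the list had at least 1 probe set annotated to it alone. These made 75 probe sets in all, of the 45037 on the array that are not controls. After probe sets with low mean signal were set aside, 32 of the 34 genes were tested among 14222 genes in all. Cnn1 and Myocd fell below that filter and are described without a test.

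By their labels, the arrays measured RNA of bladder epithelial cells taken from mice at postnatal day 7. There were 3 arrays of DsRed-positive cells and 3 of DsRed-negative cells, numbered 1, 2 and 5 in each group. In the DsRed-negative arrays the summed log2 level of 18 fibroblast and matrix genes (20.20 to 20.34) exceeded that of 18 urothelial and epithelial genes (15.70 to 16.98). These sums add the signal of different probe sets and do not measure the share of any cell type. All 6 samples carry the same reported allele (B6;129P-Upk1btm1Zhang/J, by its name an allele of the uroplakin gene Upk1b), are given as Male and share the strain label FVB/N x C57BL/6. No sample was pooled, and each RNA was amplified in 2 rounds. The sample titles name the groups by uroplakin, +ve for DsRed-positive and -ve for DsRed-negative, beside the number. The labels do not say what drives DsRed, how positive and negative cells were parted, or whether each array had its own animal. The p-values therefore reflect only how these samples scatter, which may be technical. Per the labels' protocol, the epithelial layer was loosened with trypsin, parted by dissection and digested to single cells.

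In the bladder wall, serum response factor (Srf) binds a short element called the CArG box in the promoters of muscle genes, and its cofactor myocardin (Myocd) gives smooth muscle its contractile programme. Acta2, Tagln and Cald1 are also made by myofibroblasts and pericytes, and several plaque and thin filament genes are used by most cells that crawl or adhere, epithelium included. Smooth muscle of the bladder, the detrusor, is known for strong expression of Actg2, Myh11, Des and Cnn1.

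Promoters are shown for 6 of the genes to set beside each other members that differed strongly between the groups and members for which no difference was detected, all with the CArG element or a close relative of it. The sequences are from RefSeq on build GRCm38.p6, run from 250 bases before to 50 bases after the start site, and are printed in lower case with each match in capitals. The CArG box was searched as a pair of C, 6 bases that are each A or T, and a pair of G, a pattern that reads the same on both strands. A CArG-like match has C or G at 1 of the 6 central bases, so no stretch can be both. The table of promoters held entries for 28 of the 34 genes; Actg2, Myh11, Tagln, Myocd, Tgfb1i1 and Nexn were not matched.
Acta2 (chr19:34255324-34255623, minus strand, 2 CArG-like matches): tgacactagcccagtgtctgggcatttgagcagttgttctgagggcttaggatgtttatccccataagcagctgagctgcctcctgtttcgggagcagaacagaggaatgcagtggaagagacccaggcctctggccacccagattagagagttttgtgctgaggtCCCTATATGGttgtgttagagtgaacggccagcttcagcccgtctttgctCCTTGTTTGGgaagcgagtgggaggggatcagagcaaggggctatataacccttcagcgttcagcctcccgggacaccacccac
Myl9 (chr2:156775214-156775513, plus strand, 1 CArG box and 1 CArG-like match): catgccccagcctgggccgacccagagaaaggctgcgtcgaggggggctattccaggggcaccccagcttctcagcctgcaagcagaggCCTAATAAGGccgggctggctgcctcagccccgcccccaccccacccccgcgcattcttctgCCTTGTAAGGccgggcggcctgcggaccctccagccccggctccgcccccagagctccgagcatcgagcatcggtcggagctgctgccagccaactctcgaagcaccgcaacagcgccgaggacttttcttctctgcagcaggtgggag
Cnn2 (chr10:79988350-79988649, plus strand, 1 CArG box): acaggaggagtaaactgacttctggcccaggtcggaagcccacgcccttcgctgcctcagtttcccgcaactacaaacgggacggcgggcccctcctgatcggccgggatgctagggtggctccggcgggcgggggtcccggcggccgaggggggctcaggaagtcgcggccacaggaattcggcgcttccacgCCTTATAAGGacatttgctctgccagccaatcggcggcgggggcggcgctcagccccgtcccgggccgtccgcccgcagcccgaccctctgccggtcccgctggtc
Srf (chr17:46556113-46556412, minus strand, 2 CArG boxes): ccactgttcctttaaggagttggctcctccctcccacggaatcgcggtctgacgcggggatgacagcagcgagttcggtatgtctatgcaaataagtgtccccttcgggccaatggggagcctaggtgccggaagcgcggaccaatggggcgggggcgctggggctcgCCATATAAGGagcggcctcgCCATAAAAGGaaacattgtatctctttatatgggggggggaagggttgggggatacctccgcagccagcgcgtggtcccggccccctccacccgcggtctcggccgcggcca
Vcl (chr14:20929148-20929447, plus strand, 1 CArG box): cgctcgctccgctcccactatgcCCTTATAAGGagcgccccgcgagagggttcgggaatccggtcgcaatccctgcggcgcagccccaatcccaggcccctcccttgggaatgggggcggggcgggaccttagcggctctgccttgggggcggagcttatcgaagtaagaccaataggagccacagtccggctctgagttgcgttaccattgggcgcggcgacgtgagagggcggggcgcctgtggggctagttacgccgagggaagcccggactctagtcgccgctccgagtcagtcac
Myl6 (chr10:128492960-128493259, minus strand, 1 CArG box; 1 of 2 Myl6 promoters in the table, the other having 0 matches of either kind): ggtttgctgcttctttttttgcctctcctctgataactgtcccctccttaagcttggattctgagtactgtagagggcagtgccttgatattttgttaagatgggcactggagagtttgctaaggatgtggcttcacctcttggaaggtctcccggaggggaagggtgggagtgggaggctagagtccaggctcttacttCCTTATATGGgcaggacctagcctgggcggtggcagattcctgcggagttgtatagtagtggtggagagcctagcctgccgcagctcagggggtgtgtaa

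A CArG box was found in 7 of the 28 genes with an entry (25%), namely Actc1, Myl9, Myl6, Cnn2, Srf, Vcl and Ldb3, against 1.81% of all 27025 genes in the same table. CArG-like matches were found in 6 of the 28 (21.4%), against 9.69% of all genes. Many genes of the list are textbook Srf targets, so this share describes the list and is no result of the arrays. In the array data, CArG boxes stood in 2 of the 13 matched genes that were lower in DsRed-positive cells and in 5 of the 13 that were not called. CArG-like matches went the other way, in 4 of the 13 lower genes and 2 of the 13 not called. The lower genes Actg2, Myh11, Tagln, Tgfb1i1 and Nexn had no promoter entry and are in neither count. A link between either match and the calls was not tested. Vcl and Cnn2 hold the identical element CCTTATAAGG, which lies 227 bases before the start site in Vcl and 56 bases before it in Cnn2. Cnn2 was called lower in DsRed-positive cells and Vcl was not called; the difference between these genes was not tested. A match is a description of these letters and not a shown binding site.

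Most of the contractile genes were lower in DsRed-positive cells. Of the 32 tested, 18 were lower and 1, Ppp1r12b, was higher, by limma at an adjusted p of 0.05 (Benjamini-Hochberg, taken over every tested probe set), and 13 were not called. This is 56.2% lower, where 11.3% of all 14222 genes were lower, and 3.12% higher, where 9.21% of all genes were higher. The list was chosen with earlier results of these data known, so these shares describe it and do not test it. In 20 of the 32 genes (62.5%) every DsRed-positive array lay below every DsRed-negative array, against 21.4% of all genes. In 1 gene it lay above, against 22.0% of all genes. The median log2 change, DsRed-positive minus DsRed-negative, was -2.51 over the members and 0.04 over all genes, with members from -6.69 to 1.64. In 10 of the 18 lower genes the change was at least 16-fold. In these bulk samples, fewer cells of a type and less RNA per cell cannot be told apart.

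**Figure D1:**
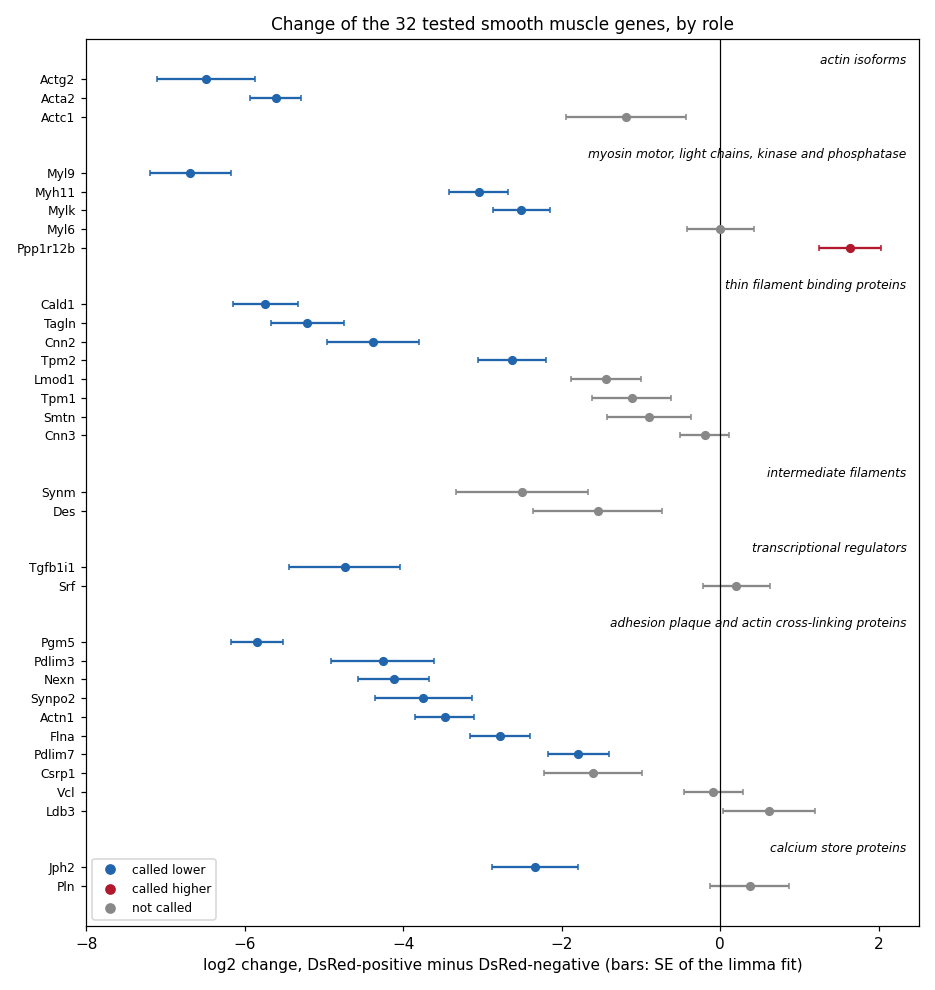
Log2 change of the 32 tested genes (horizontal axis, DsRed-positive minus DsRed-negative) grouped by role, with the standard error of the limma fit as bars and colour for the call at an adjusted p of 0.05. Actg2, Acta2, Myl9, Cald1, Tagln and Pgm5 lie beyond -5, while Cnn3, Vcl, Srf and Myl6 lie near 0, and Ppp1r12b is the gene called higher.

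Upk1b, the uroplakin gene of the reported allele, was 19.2-fold higher in DsRed-positive arrays (16.48, 16.70 and 16.67 against 13.27, 12.25 and 11.53 on the log2 scale). The sample titles name the groups by uroplakin. The median of all probe sets before normalization was 0.54 lower on the log2 scale in DsRed-positive than in DsRed-negative arrays. With the values as deposited the members gave 20 lower and 1 higher (all genes 2032 lower and 1229 higher, median change -0.17), and with arrays centred on their medians 17 lower and 1 higher (all genes 1396 and 2558, median 0.37), beside 1603 and 1310 over all genes here. The control level, the 95th percentile of 27 control probe sets for bacterial transcripts on each array, ran from 7.41 to 8.03 on the normalized log2 scale. Both arrays numbered 1 gave a log2 signal of over 15 for Xist, the transcript of the inactive X chromosome (15.08 and 15.48), and the Y-linked Eif2s3y lay at 6.32 and 5.44 there. The other 4 arrays lay at 8.89 or below for Xist and at 11.78 or above for Eif2s3y. Number 1 thus goes against its Male label in both groups. Without both of its arrays 11 members were lower and none higher (6 of the 18 calls then had adjusted p from 0.0600 to 0.135 and Jph2 had 0.195), against 5.33% of all genes lower in that fit. Leaving out both arrays numbered 2 gave 18 lower members (8.03% of all genes lower), and both numbered 5 gave 17 (6.35%).

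Of the 3 actins, 2 were lower. Acta2, the alpha actin of smooth muscle, had deposited signals of 1718, 1981 and 2355 in DsRed-positive 1, 2 and 5, and of 85444, 165995 and 163027 in DsRed-negative 1, 2 and 5. On the normalized log2 scale these were 10.73, 11.03 and 11.21 against 16.40, 16.62 and 16.76. The groups lay far apart with little spread inside each, and the DsRed-positive arrays were still well above the control level. The log2 change was -5.61 ± 0.32 (SE, n = 3 against 3), or 48.7-fold lower (adjusted p = 9.65e-05). Actg2, the gamma actin of visceral smooth muscle, had log2 signals of 6.92, 5.53 and 7.54 in the DsRed-positive arrays and 12.37, 13.10 and 13.98 in the DsRed-negative ones. Its DsRed-positive arrays 1 and 2 were at or below the control level, so its change of -6.49 ± 0.62 (adjusted p = 5.64e-04) rests partly on signal that cannot be told from control. Actc1, the cardiac alpha actin that immature smooth muscle can also make, was dim in every array. It gave 5.65, 6.48 and 7.84 against 8.44, 6.40 and 8.69. The groups overlapped, and the change of -1.19 had a 95% interval from -2.96 to 0.59.

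Among the myosin genes, the regulatory light chain Myl9 was far lower in DsRed-positive cells. Its DsRed-positive arrays gave 6.34, 7.96 and 7.70, near the control level, and its DsRed-negative arrays 13.49, 14.43 and 14.16. The change was -6.69 ± 0.51, or 103-fold (adjusted p = 2.26e-04). The smooth muscle heavy chain Myh11, the motor itself, gave 7.50, 7.84 and 7.98 against 10.60, 11.35 and 10.50. Both groups were tight and apart, with a change of -3.05 ± 0.37 (adjusted p = 0.00150). The DsRed-positive signal of Myh11 was near the control level, and at or below it in array 1. A further Myh11 probe set was too dim to test. The kinase Mylk, which phosphorylates the regulatory light chain and so starts contraction, stayed high in both groups, at 12.78, 12.28 and 13.12 against 15.44, 15.27 and 15.00. It was 5.70-fold lower in DsRed-positive cells (-2.51 ± 0.36, adjusted p = 0.00308). Mylk also makes a long form used outside muscle, and its 3 probe sets gave -2.51, -2.69 and -1.52, the last not called.

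The essential light chain Myl6, which non-muscle myosin also uses, gave 9.96, 10 and 9.43 in DsRed-positive and 9.64, 10.50 and 9.25 in DsRed-negative arrays. These values were mixed between the groups, and the change of 0.00 had a 95% interval from -0.98 to 0.99. Ppp1r12b, a targeting subunit of the phosphatase that relaxes myosin, was the member that rose. It had 10.63, 11.56 and 10.68 in DsRed-positive and 9.25, 9.60 and 9.10 in DsRed-negative arrays, with no overlap. The change was 1.64 ± 0.39, or 3.12-fold (adjusted p = 0.0256). Another Ppp1r12b probe set was at least 1.41-fold higher, with all DsRed-negative arrays at or below the control level, and the other tested probe set gave -0.22. The call was lost in 5 of the 6 fits that leave out 1 array, all but the fit without DsRed-negative 2, with adjusted p from 0.0587 to 0.0877.

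Of the 8 tested thin filament proteins 4 were lower and 4 were not called. Cald1, caldesmon, which restrains the myosin ATPase, gave 9.98, 11.27 and 10.81 against 16.55, 16.30 and 16.42. The change was -5.74 ± 0.41 (adjusted p = 1.72e-04), and all 4 tested probe sets fell, from -5.74 to -3.16. Tagln, transgelin, an early marker of smooth muscle, gave 6.51, 7.89 and 7.34 against 11.93, 12.66 and 12.76. It was 36.9-fold lower (-5.21 ± 0.46, adjusted p = 3.98e-04), with DsRed-positive 1 and 5 at or below the control level. Cnn2, the calponin that also occurs in fibroblasts and leukocytes, gave 9.62, 11.40 and 9.30 against 14.52, 14.86 and 14.09. DsRed-positive 2 stood highest of its group, and the change was -4.38 ± 0.58 (adjusted p = 0.00222).

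The other calponins were not called or not tested. Cnn3, the acidic calponin of many tissues, had bright signal throughout, at 16.37, 16.54 and 16.18 against 16.67, 16.56 and 16.46. Its change was -0.20 with a 95% interval from -0.92 to 0.52, and its 6 probe sets ran from -0.99 to -0.09, none of them called. Cnn1, the calponin of differentiated smooth muscle, was below the filter. Its only probe set gave 5.46, 5.73 and 6.03 in DsRed-positive arrays, all at or below the control level, and 7.70, 9.20 and 8.56 in DsRed-negative arrays. DsRed-negative 1 was itself at or below the control level, and the DsRed-negative mean was at least 1.99-fold higher, with no test.

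Tropomyosins lie along the actin filament. Tpm2 gave 12.81, 13.73 and 13.74 against 15.52, 16.11 and 16.54. It was 6.21-fold lower (-2.63 ± 0.43, adjusted p = 0.00557), and 3 of its 4 probe sets were called lower while the dimmest gave 0.45. Without probe sets whose suffix marks possible cross-hybridization or shared transcripts, only that dim one was left. Tpm1 gave 11.98, 12.16 and 10.80 against 12.07, 13.04 and 13.18, with overlap between the groups. Its brightest probe set was not called (-1.12, adjusted p = 0.172), another was lower (-2.72 ± 0.70, adjusted p = 0.0351) and the remaining tested one gave 1.20. Tpm1 makes many isoforms by alternative exons, and what each probe set reads was not analysed here.

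Lmod1, leiomodin, which nucleates actin filaments in smooth muscle, was dim but did not overlap. It gave 6.88, 7.73 and 6.32 against 8.52, 8.67 and 8.06 (-1.44, adjusted p = 0.0640). Without further normalization it passed (-1.92, adjusted p = 0.0184), as it did without DsRed-positive 2 (adjusted p = 0.0464). Only 3 of 19 alternative fits called Lmod1, and without DsRed-positive 5 its adjusted p was 0.186. Smtn, smoothelin, a marker of contractile smooth muscle, gave 9.04, 7.94 and 7.96 against 9.37, 8.32 and 9.95. Its groups overlapped, with a change of -0.90 (adjusted p = 0.289).

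The intermediate filament genes had the largest spread of all tested members among the DsRed-negative arrays (SD 1.47 for Des and 1.58 for Synm). Des, desmin, gave 9.17, 9.45 and 6.78 there, so DsRed-negative 5 was at or below the control level while the other two were above it. The DsRed-positive arrays gave 6.09, 8.05 and 6.60. The change was -1.55 ± 0.81 (adjusted p = 0.232), and without DsRed-negative 5 it was -2.40 and called (adjusted p = 0.0479). That was the only 1 of 19 alternative fits to call Des, and without DsRed-positive 1 its adjusted p was 0.503. Synm, synemin, a partner of desmin, gave 11.05, 7.90 and 9.65 in the DsRed-negative arrays and 7.84, 7.30 and 5.97 in the DsRed-positive ones. It barely avoided overlap, since DsRed-negative 2 lay close to DsRed-positive 1. Its change was -2.50 ± 0.83 (adjusted p = 0.0810), and -3.32 without DsRed-negative 2 (adjusted p = 0.0186). Synm was called in 4 of 20 alternative fits, and without DsRed-positive 5 its adjusted p was 0.225.

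**Figure D2:**
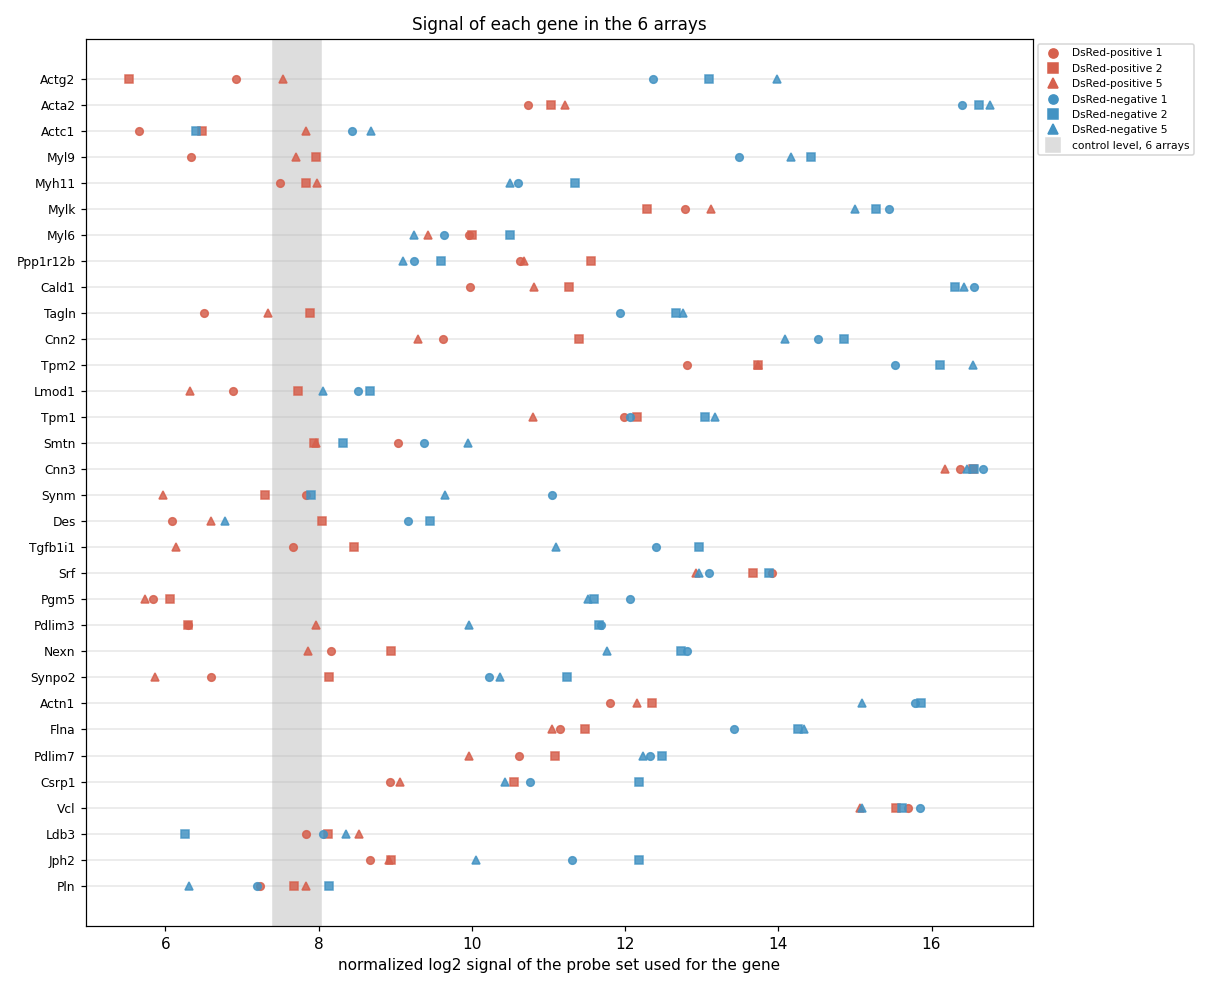
Normalized log2 signal of the 32 tested genes (rows, in the same order as the plot of changes by role) in each of the 6 arrays (red DsRed-positive, blue DsRed-negative; circle, square and triangle for numbers 1, 2 and 5), with the range of the control level shaded. For Acta2, Myl9, Cald1 and Pgm5 the colours are widely apart, for Cnn3, Vcl, Srf and Myl6 they mix, and Des has a DsRed-negative array among the DsRed-positive ones.

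Of the transcriptional regulators, Srf itself gave 13.92, 13.67 and 12.93 in DsRed-positive arrays and 13.09, 13.88 and 12.96 in DsRed-negative arrays. The values were mixed, with a change of 0.20 and a 95% interval from -0.78 to 1.19, and its other probe set gave 0.16. Myocd was below the filter on both of its probe sets. The brighter gave 6.00, 5.90 and 6.33 against 5.75, 6.92 and 8.64, and it exceeded the control level only in DsRed-negative 5. Tgfb1i1 (Hic-5), a focal adhesion protein that also acts in the nucleus as a coactivator, gave 7.66, 8.46 and 6.14 against 12.40, 12.97 and 11.10. The groups lay apart, and the change was -4.74 ± 0.70 (adjusted p = 0.00364).

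The plaque and cross-linking genes held 7 lower members of 10. Pgm5, aciculin, a relative of phosphoglucomutase that sits in muscle adherens plaques, had the smallest p of all members. It gave 5.84, 6.06 and 5.73 against 12.07, 11.60 and 11.51, so every DsRed-positive array was at or below the control level and the fold was at least 18.8 (change -5.85 ± 0.33, adjusted p = 9.28e-05). Pdlim3, a PDZ and LIM protein that binds alpha-actinin, gave 6.30, 6.29 and 7.96 against 11.69, 11.66 and 9.96. The number 5 arrays of both groups stood closer to each other than the rest, and the change was -4.26 ± 0.65 (adjusted p = 0.00416). Nexn, nexilin, an F-actin binding protein, gave 8.16, 8.94 and 7.86 against 12.81, 12.73 and 11.77 (-4.12 ± 0.45, adjusted p = 9.66e-04).

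Synpo2, myopodin, which bundles actin at muscle dense bodies, gave 6.59, 8.13 and 5.86 against 10.23, 11.24 and 10.37 on its brightest probe set. That probe set was lower (-3.75 ± 0.61, adjusted p = 0.00564), with DsRed-positive 1 and 5 at or below the control level. The other tested Synpo2 probe sets, near the control level, gave 0.08 and -0.02. Averaged over its tested probe sets, Synpo2 had a change of -1.23 and was not called (adjusted p = 0.106). Actn1, alpha-actinin, which cross-links actin at plaques in muscle and other cells, gave 11.80, 12.35 and 12.15 against 15.79, 15.86 and 15.09. It was 11.2-fold lower (-3.48 ± 0.37, adjusted p = 8.16e-04). Flna, filamin A, a cross-linker of most cells, gave 11.15, 11.48 and 11.04 against 13.42, 14.26 and 14.34. It was 6.88-fold lower (-2.78 ± 0.38, adjusted p = 0.00246).

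Pdlim7, a scaffold that binds tropomyosin, gave 10.62, 11.08 and 9.96 against 12.33, 12.48 and 12.23. The change of -1.79 ± 0.38 was called (adjusted p = 0.0179) but not without DsRed-positive 1 (adjusted p = 0.0678), without DsRed-positive 5 (0.0623) or with arrays centred on their medians (0.0715). Csrp1, a LIM protein of smooth muscle, gave 8.93, 10.55 and 9.06 against 10.76, 12.18 and 10.43. DsRed-positive 2 reached into the range of the DsRed-negative arrays, and number 2 was the highest in both groups. Its change of -1.61 was not called (adjusted p = 0.120), and was called with the number as a replicate block (adjusted p = 0.0356). That was the only 1 of 19 alternative fits to call Csrp1, and without DsRed-positive 1 its adjusted p was 0.317.

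Vcl, vinculin, which joins actin to integrins and cadherins in muscle and epithelium alike, gave 15.69, 15.53 and 15.07 against 15.85, 15.62 and 15.09. The arrays of a number were close to each other in both groups, and the change was -0.09 with a 95% interval from -0.95 to 0.76. Ldb3, a Z-disc protein of striated muscle with little known role in smooth muscle, stayed near the control level at 7.84, 8.12 and 8.53 against 8.06, 6.26 and 8.36 (0.61, adjusted p = 0.518).

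Of the 2 calcium store genes, 1 was lower. Jph2, junctophilin, which ties the store to the cell membrane, gave 8.67, 8.94 and 8.92 against 11.31, 12.18 and 10.06. The DsRed-positive arrays were tight and the DsRed-negative ones spread, and the change of -2.34 ± 0.54 was called (adjusted p = 0.0240). The call was lost without DsRed-negative 1, or without DsRed-positive 1, 2 or 5, with adjusted p up to 0.0958. Pln, phospholamban, the brake on the store's calcium pump, gave 7.24, 7.68 and 7.83 against 7.20, 8.13 and 6.31, at about the control level in both groups (0.37, adjusted p = 0.656).

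Of the 59 tested probe sets of these genes 26 were lower, 2 higher and 31 not called. Over all 14222 genes, each read on its brightest probe set, 11.3% were lower and 9.21% higher. The shares over all tested probe sets were not counted. In 7 of the 13 genes with more than 1 tested probe set, some were called and others not: Mylk, Ppp1r12b, Tpm1, Tpm2, Actn1, Synpo2 and Pdlim7. No gene had probe sets called in opposite directions. The 3 Actn1 probe sets gave -3.48, -2.46 and -0.47, in order from the brightest to the dimmest.

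**Figure D3:**
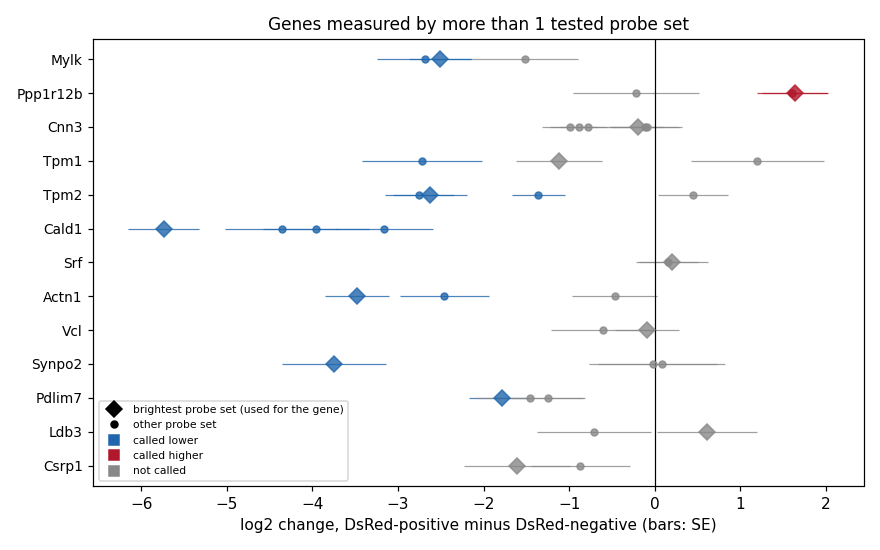
Log2 change with its standard error for every tested probe set of the 13 genes with more than 1, diamonds for the brightest probe set, which stands for the gene, and colour for the call. All 4 Cald1 probe sets are called lower, the 6 of Cnn3 and 2 each of Srf and Vcl are not called, and the Tpm1 and Synpo2 probe sets spread widely.

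Within a group, the members did not all rank the arrays in 1 order. In the DsRed-positive group, array 2 was the highest for 19 of the 32 members, with a median deviation from the group mean of 0.26, while arrays 1 and 5 deviated by -0.21 and -0.18. In the DsRed-negative group, array 2 was the highest for 15 members (median deviation 0.27), arrays 1 and 5 for 8 and 9, and array 5 was the lowest for 19 (-0.23). Fibroblast markers deviated otherwise, by -0.36, -0.19 and 0.48 in DsRed-positive 1, 2 and 5, and by at most 0.12 in size in the DsRed-negative arrays. Urothelial markers deviated by 0.57, -0.06 and -0.61 in DsRed-negative 1, 2 and 5. At or below the control level were 11, 5 and 7 members in DsRed-positive 1, 2 and 5, and 1, 2 and 2 in DsRed-negative 1, 2 and 5. In 8 of the 18 genes called lower, at least 1 DsRed-positive array was at or below that level. These were Actg2, Myh11, Myl9, Tagln, Tgfb1i1, Pgm5, Synpo2 and Pdlim3, and the sizes of their changes rest partly on such signal.

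Other genes of contraction were read from lists drawn up by role. Among 15 cofactors and regulators of the muscle programme 3 were lower, 0 higher and 12 not called (median change -0.48), where over all genes 11.3% were lower and 9.21% higher with a median of 0.04. Prkg1, the cGMP-dependent kinase that relaxes smooth muscle, changed by -4.61 ± 0.56, the LIM protein Fhl1 by -3.58 ± 0.41 and Csrp2, a partner of Srf in smooth muscle, by -3.15 ± 0.34 (adjusted p = 0.00148, 0.00114 and 9.10e-04). The Srf coactivators Mrtfa (-1.24, adjusted p = 0.0951) and Mrtfb (0.30, adjusted p = 0.668) were not called.

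Of 13 tested channel and calcium store genes, 3 were lower, 2 higher and 8 not called (median -1.23), against 11.3% lower and 9.21% higher over all genes. The calcium channel subunit Cacna2d1 changed by -4.92 ± 0.46 (adjusted p = 5.10e-04). Trpc1 (-3.82, adjusted p = 0.0390) and the store protein Casq2 (-1.67, adjusted p = 0.0406) were lower. The chloride channel Ano1 rose by 1.94 (adjusted p = 0.0376), and the release channel Ryr2 was at least 1.43-fold higher (adjusted p = 0.0202). Of these 5 only Cacna2d1 was called in every fit without 1 array. Trpc1 reached an adjusted p of 0.128 without DsRed-positive 5, and it was also lost without DsRed-negative 1, DsRed-negative 2 or DsRed-positive 2. Casq2, Ano1 and Ryr2 reached 0.146, 0.139 and 0.0890 without DsRed-positive 1. They were also lost without DsRed-positive 5. Casq2 was lost without DsRed-negative 2 or 5, Ano1 without DsRed-negative 1, DsRed-negative 2 or DsRed-positive 2, and Ryr2 without DsRed-negative 1. With the number as a replicate block, neither Ano1 (adjusted p = 0.0656) nor Ryr2 (adjusted p = 0.0526) was called. The pore subunit Cacna1c was not called (-1.26, adjusted p = 0.317).

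In the list of the dystrophin complex and muscle integrins, 6 of 17 tested genes were lower, 0 higher and 11 not called (median -0.78), against 11.3% and 9.21% of all genes. Sarcospan (Sspn) changed by -4.89 ± 0.47, parvin alpha (Parva) by -2.91 ± 0.33 and talin (Tln1) by -2.41 ± 0.31 (adjusted p = 5.80e-04, 0.00117 and 0.00198). Parva had -0.47 on the probe set left when suffixed ones were dropped (adjusted p = 0.677). Of 11 receptors for contraction and relaxation only 4 had a tested probe set of their own. The prostaglandin receptor Ptger3 was at least 2.20-fold lower (adjusted p = 0.0198), a call lost without any 1 of the DsRed-positive arrays (adjusted p up to 0.0881), and the other 3 were not called. With the values as deposited all 4 were lower, in a fit where 14.3% of all genes were lower and the median change over all genes was -0.17.

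Of 14 tested non-muscle actin and myosin genes, 2 were lower, 1 higher and 11 not called, with a median of -0.37, where over all genes 11.3% were lower and 9.21% higher. These shares are near those of all genes. The cytoplasmic actins gave -0.33 (Actb, adjusted p = 0.566) and 0.07 (Actg1, adjusted p = 0.905). Heavy chain Myh10 (-2.41 ± 0.44, adjusted p = 0.00886) and transgelin 2 (Tagln2, -2.06 ± 0.35, adjusted p = 0.00704) fell, and the epithelial heavy chain Myh14 rose by 2.42 ± 0.52 (adjusted p = 0.0181). The Myh14 call was lost without any 1 of the DsRed-positive arrays (adjusted p up to 0.0689), and none of Myh10, Tagln2 and Myh14 was called without both arrays numbered 1 (adjusted p = 0.116, 0.0791 and 0.109).

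**Figure D4:**
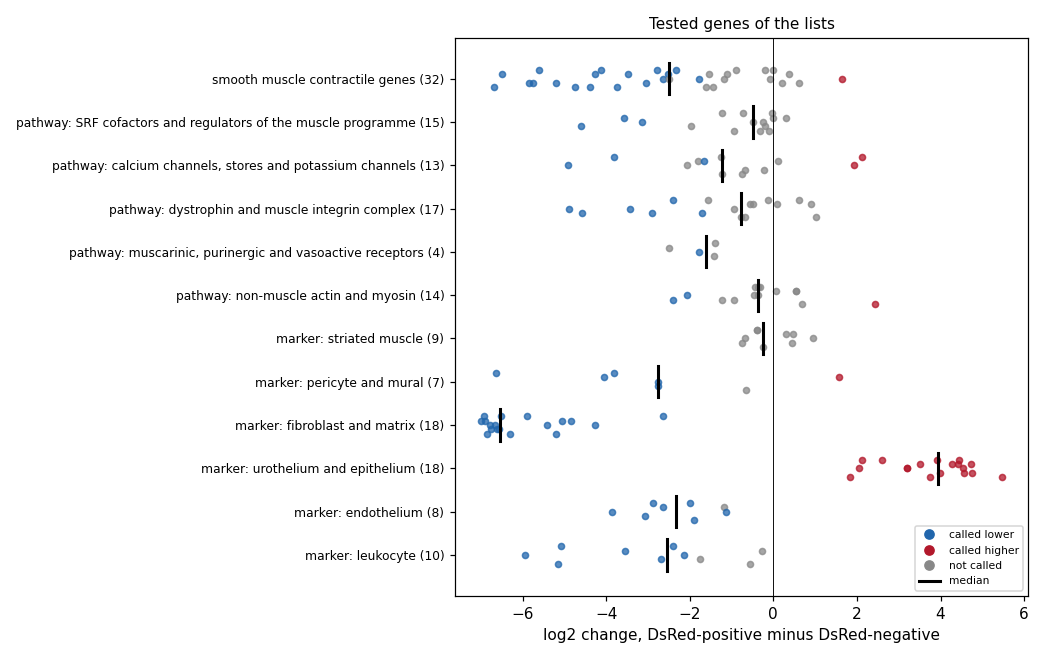
Log2 change (horizontal axis) of every tested gene of the contractile list, 5 lists of related pathways and 6 marker lists, with colour for the call, the median as a black bar and the number of tested genes in brackets. The contractile genes span from -6.69 to 1.64, wider than the fibroblast markers, which lie from -6.99 to -2.64.

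Most tested fibroblast, pericyte, endothelial and leukocyte markers were also lower, urothelial markers were higher, and striated muscle markers were not called. Over all genes 11.3% were lower and 9.21% higher. All 18 fibroblast and matrix genes were lower (median -6.54), with a summed log2 level of 14.30 to 15.15 in DsRed-positive and 20.20 to 20.34 in DsRed-negative arrays. Decorin (Dcn, -6.67), Sparc (-6.79) and periostin (Postn, -6.57) had the smallest p. Of 7 tested pericyte genes 5 were lower, 1 higher and 1 not called. Pdgfrb (-6.63), Abcc9 (-4.04) and Kcnj8 (at least 9.12-fold lower) led them. The summed pericyte level was 15.39 to 16.31 in DsRed-positive and 14.98 to 15.55 in DsRed-negative arrays, carried by Rgs5 (16.25, 15.31 and 15.69 against 14.53, 13.55 and 14.49), which was called higher (1.56, adjusted p = 0.0439). With any 1 of the 6 arrays left out, with the values as deposited, with an offset of 1 or with no filter on low values, 0 of these 7 genes were called higher. Endothelial genes were lower in 7 of 8 cases, led by Cldn5, Tek and Ptprb. Without both arrays numbered 1 they were lower in 3 of 8 (5.33% of all genes lower). Without both numbered 5 they were lower in 4 of 8 (6.35% of all genes lower). Their summed level was 11.71 to 11.90 in DsRed-positive and 13.96 to 14.40 in DsRed-negative arrays.

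Leukocyte genes were lower in 7 of 10 cases (11.3% of all genes lower), with Laptm5, H2-Aa and Ptprc first by p. Their summed levels were 11.81 to 12.78 in DsRed-positive and 15.23 to 15.59 in DsRed-negative arrays. Leukocyte genes were lower in 4 of 10 cases without both arrays numbered 5 (6.35% of all genes lower). Without suffixed probe sets they were lower in 3 of 8 (median -1.28, 9.9% of all genes lower). All 18 urothelial and epithelial genes were higher (median 3.95, 9.21% of all genes higher), led by Upk1a, Krt18 and Grhl3. Their summed levels were 19.69 to 19.76 in DsRed-positive and 15.70 to 16.98 in DsRed-negative arrays. Of the 18, 16 to 17 were higher without any 1 array (4.38% to 8.88% of all genes). Without both arrays numbered 1 or both numbered 5, 15 were higher (3.41% and 3.68% of all genes). None of the 9 tested striated muscle genes was called by limma. Of these 9, 0 had an unadjusted p under 0.05, against 9536 of all 30175 tested probe sets. The smallest p of the 9 were those of Ttn (-0.67, adjusted p = 0.32), Tnni1 (0.94, adjusted p = 0.398) and Actn2 (-0.75, adjusted p = 0.425). The summed level was 11.04 to 12.11 in DsRed-positive and 11.27 to 11.91 in DsRed-negative arrays, and the median change was -0.24. On that list, 12 of the 21 genes, the skeletal actin Acta1 and Myog among them, had no tested probe set of their own. The part of any of these cells in the contractile signal was not tested.

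The defining smooth muscle genes were not all above the control level in the DsRed-negative arrays. On their brightest probe sets, Acta2, Actg2, Myl9, Tagln, Cald1 and Myh11 were well above the control level in every DsRed-negative array. On theirs, Cnn1 and Des were at or below it in 1 DsRed-negative array each, and Myocd in 2 of 3. Dimmer, untested probe sets of Acta2, Myh11, Cald1, Des and Myocd were at or below it in 2 or 3 of the 3 DsRed-negative arrays.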

How the data were processed

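Gene expression was measured on 6 Affymetrix Mouse Genome 430 2.0 arrays. The deposited values were taken as linear probe set intensity; the submitters' processing notes name GCOS, with version and settings not given in the sources here. All arrays had the same mean after trimming 2% at each end (1500.01), so the authors had scaled them. Before taking log2, 39.84 was added to each value (the deposited values' 20th percentile), and the log2 arrays were quantile normalized because their medians spanned 0.74. Of 45101 probe sets, 64 controls were removed, and 30175 whose mean exceeded the 33rd percentile were tested with limma 3.58.1 in R 4.3.3 (lmFit, eBayes, two-sided, Benjamini-Hochberg adjustment), a procedure tested on simulated data. Errors are standard errors of that fit, intervals are 95% intervals of it, and fold changes are on the offset scale, which understates those of dim genes. Symbols came from the platform annotation, updated through gene IDs: 34945 probe sets had 1 symbol, 932 several and 9160 none. A gene was read on its brightest single-gene probe set. Where all arrays of a group lay at or below the control level, the fold was taken against that level and written as at least N-fold. The number of arrays limits the precision.

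The members and lists were chosen with earlier results of these data known. All members are named; from each pathway list the 3 called genes with the smallest p in each direction, and from each marker list the 3 with the smallest p. Mrtfa, Mrtfb, Cacna1c, Actb, Actg1, Rgs5, Acta1 and Myog were named, and values of the untested Cnn1 and Myocd given, after their values were seen. The alternatives tried were other scalings, offsets, filters, probe set rules and variance models, the number as a replicate block, and leaving out arrays. 1 pathway list is not reported here.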

Additional observations from a re-analysis of the deposited data

How the results depend on the processing

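The count of lower members was 16 to 19 when 1 array was left out and 11 to 18 when both arrays of a number were left out, so 11 to 19 over all of these fits. It was 15 to 20 under the other alternatives. The share of all genes called lower was 7.53% to 10.4% with 1 array left out and 5.33% to 8.03% with both arrays of a number left out. Under the other alternatives it was 9.84% to 14.3%. The count of higher members, 1, was 0 to 1 in the fits that left arrays out and 1 under every other alternative. Of all genes, 3.41% to 8.88% were higher in the fits that left arrays out and 6.97% to 18% under the other alternatives. Of the 18 lower calls, 10 were kept under every alternative run: Acta2, Actg2, Myh11, Myl9, Tagln, Cald1, Flna, Actn1, Pgm5 and Nexn, except that Acta2 and Actg2 have no probe set without a suffix bright enough to test. The change of Tpm2 became 0.45 and that of Laptm5 0.07 without probe sets with the suffixes _s_at, _x_at or _a_at, because other probe sets then stood for those genes. With the number as a replicate block, 19 members were lower and 1 higher. The deviations of same-numbered arrays from their group means correlated at 0.15, 0.04 and 0.05 for numbers 1, 2 and 5, every array correlated best with its own number, and the labels do not say that a number marks a shared animal or day. Signal near the control level limits Actc1, Des, Lmod1, Synm, Pln, Ldb3, Cnn1 and Myocd.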
